A study of Populus ussuriensis with 12 samples.

Results

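Leaf messenger RNA of watered Populus ussuriensis, a poplar, was compared between plants that overexpress the microRNA Pu-miR172d (OE) and wild-type plants (WT). The members are all genes with at least 1 FPKM (fragments per kilobase of transcript scaled to the library's total) in at least 3 of the 6 watered libraries, which holds for 23026 of the 35747 genes listed. Of these, 20263 reached 1 FPKM in all 6 libraries. At the edge of the rule, 788 genes reached it in exactly 3 libraries and 937 others, left out, in exactly 2. The WT watered group (WT, Well-watered) and the OE watered group (Pu-miR172d-OE, Well-watered) hold 3 libraries each, numbered 1 to 3. RNA came from leaves 7 and 8, counted from the shoot tip, of plants grown for 70 days in soil. A further 3 WT and 3 OE libraries, numbered 4 to 6, came from plants left without water for 4 days, and they enter here for the shared estimate of spread and as a second, separate comparison of the genotypes. The labels name no promoter for the transgene and do not say how many transgenic lines were used or whether libraries came from separate plants. The p-values therefore reflect the spread among these libraries and no more, and part of it may be technical.

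MicroRNAs of the miR172 family are best known in Arabidopsis and maize, where they repress APETALA 2 (AP2) type transcription factors by cleaving their messenger RNA and by blocking its translation. Through these targets they promote the change from juvenile to adult growth and the onset of flowering. The series asks about stomatal differentiation and drought, and in Arabidopsis the trihelix factor GTL1 is known to repress SDD1, a subtilisin-like protease that limits stomatal density. The overexpressed microRNA itself was not analysed here.

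In watered leaves few genes separated the genotypes. With limma on log2(FPKM + 1), 42 of the 23026 tested genes (0.182%) passed an adjusted p of 0.05, 28 of them (0.122%) higher and 14 (0.0608%) lower in OE leaves. The libraries of the genotypes overlapped in none of the 42. The smallest adjusted p belonged to the homeobox gene ATHB-7, followed by a UDP-arabinose 4-epimerase. The other calls included 3 RADIALIS factors that were lower, 2 dnaJ 11 chaperones that were higher, and 4 metalloproteinases, 2 in each direction. In the plot of difference against level, the called genes lie at the outer edge of a cloud that holds many other genes of similar size.

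**Figure D1:**
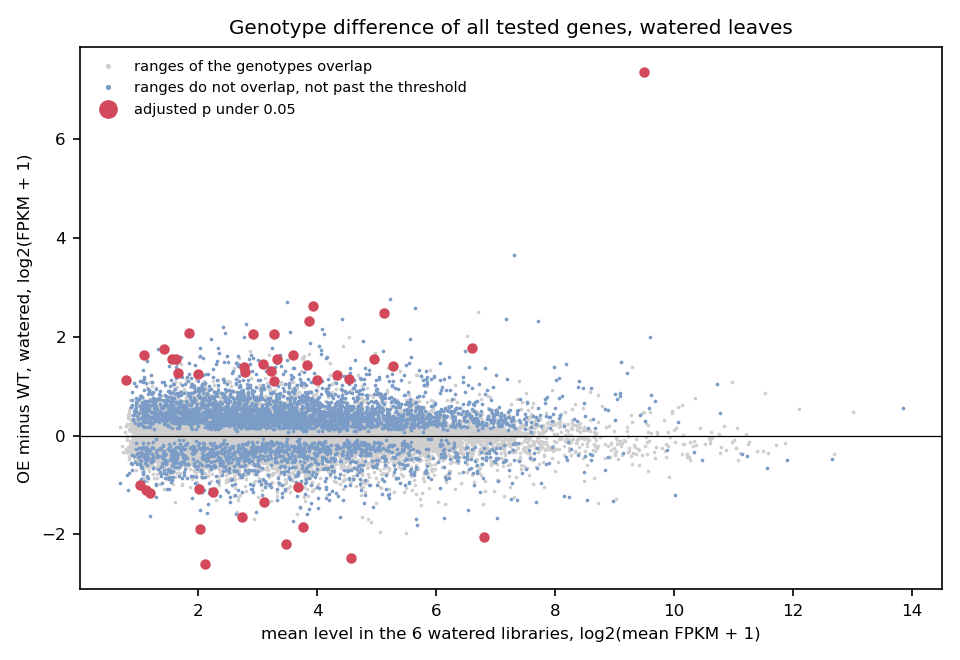
Difference between the genotypes in watered leaves (OE minus WT, mean of 3 libraries each, on the log2(FPKM + 1) scale) against mean level for the 23026 tested genes. Red points are the 42 genes with an adjusted p under 0.05, blue points are other genes whose OE and WT libraries do not overlap, and ATHB-7 stands alone at 7.37.

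Separation of the replicates alone was common. The 3 OE libraries all lay above or all lay below the 3 WT libraries in 4204 genes (18.3%), 2986 of them higher (13%) and 1218 lower (5.29%). An unadjusted p under 0.05 was found in 2212 genes (9.61%), 1505 higher (6.54%) and 707 lower (3.07%). The gap, here the distance on the log2 scale between the nearest libraries of the genotypes, had a median of 0.97 in the called genes, and the widest gap of a gene that was not called was 1.71. It passed 1 in 46 genes, of which 19 were called, and it passed 2 in ATHB-7 alone. Of the 512 genes that differed by at least 1 on the log2 scale, 364 had libraries that did not overlap, and the smallest called difference was 1.01. The median difference over all tested genes was 0.05, and -0.04 with median-of-ratios scaling, so that lists near 0 can change sides between the scalings. Of all tested genes 13358 were higher and 9668 lower in OE leaves, and 10132 and 12894 with that scaling. Counts of higher or lower members of the lists below are to be read beside these. A total of 133 members reached 1 FPKM in 1 genotype only, 43 in WT and 90 in OE leaves, and no gene was listed at 0 in all 3 libraries of a genotype while reaching 1 FPKM in all 3 of the other.

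The libraries held 9682111 to 10710916 fragments in the watered groups, a total read off the smallest steps between FPKM values. Over all tested genes neither the correlations nor the first principal component sorted them by genotype. Pearson correlations of log2(FPKM + 1) ran from 0.966 to 0.976 between WT libraries, from 0.922 to 0.966 between OE libraries and from 0.903 to 0.970 between genotypes. OE replicate 3 correlated on average at 0.944 with the other OE libraries and at 0.963 with the WT libraries. The first principal component carried 50.1% of the variance, and on it OE replicate 3 (18.5) lay within the range of the WT libraries (5.28 to 43.99) while OE replicate 2 lay far away (-68.8). On the second component (20.3%) OE replicate 3 lay at -43.1, below the WT libraries (-1.89 to 30.6). There OE replicates 1 and 2 (-5.88 and 2.87) lay below or within that range. In the plane of both components a straight line parts the WT from the OE libraries. The median spread of a gene within a group was 0.236 (SD, log2 scale) in OE and 0.175 in WT leaves. Without OE replicate 3 the count of called genes was 308, which held all 42, and without WT replicate 2 it was 10.

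**Figure D2:**
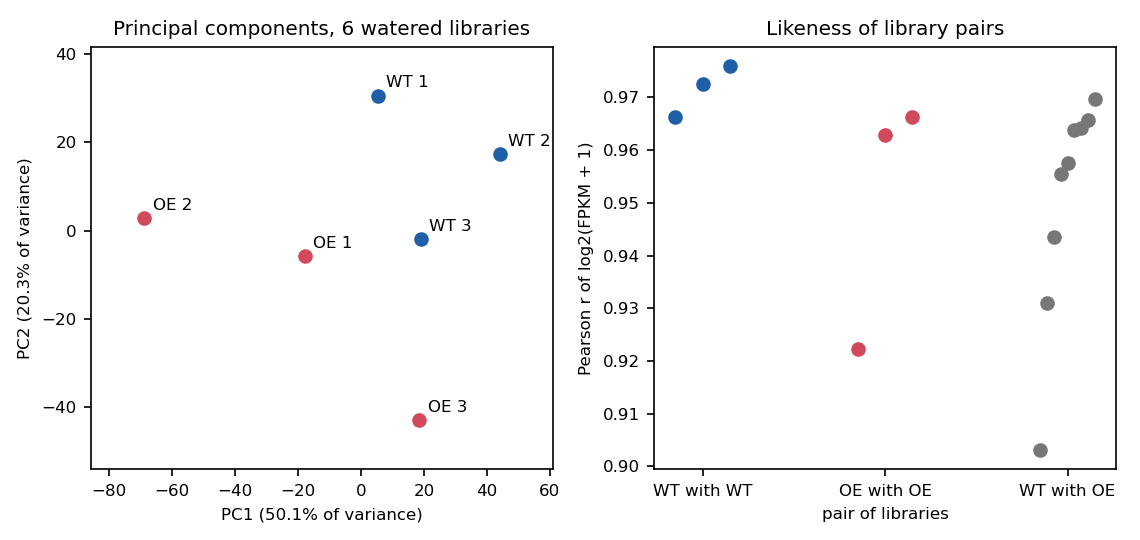
The 6 watered libraries over all tested genes. Left, the first and second principal components of log2(FPKM + 1), each point a library. Right, Pearson correlation of each pair of libraries, with 3 pairs within WT, 3 within OE and 9 between genotypes. OE replicates 2 and 3 lie apart from each other (r = 0.922) and the pairs between genotypes reach up to 0.970.

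Of the 42 genes, 9 kept an adjusted p under 0.05 whichever of the 6 watered libraries was left out, and for the other 33 the call ended without at least 1 of them. The 9 are ATHB-7, an undescribed gene, a dnaJ 11 chaperone, SUC2, EFM and APL, which were higher in OE leaves, and the UDP-arabinose 4-epimerase, a 2-MMP metalloproteinase and a RADIALIS factor, which were lower. With only the 6 watered libraries fitted, ATHB-7, the undescribed gene and the epimerase passed and the other 6 did not (adjusted p = 0.0671 to 0.0907). The plot of these genes by library shows how far apart the 3 points of each genotype lie.

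**Figure D3:**
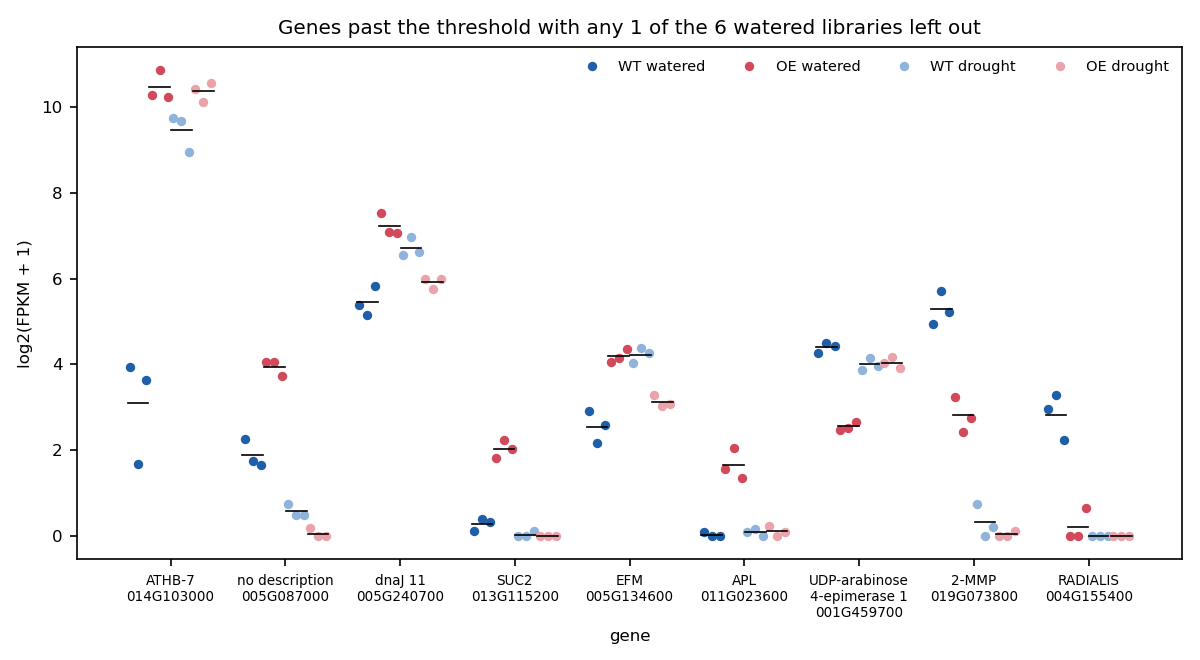
Levels, as log2(FPKM + 1), of the 9 genes that passed the threshold with any single watered library left out. Each point is a library, black bars are group means, and the 4 groups of 3 libraries stand side by side for each gene. In watered leaves the OE points lie above the WT points for the 6 genes on the left and below them for the 3 on the right.

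ATHB-7 (Potri.014G103000, chromosome 14, 8085842 to 8087890, minus strand) encodes a homeodomain-leucine zipper transcription factor whose Arabidopsis namesake is induced by water deficit and abscisic acid (ABA). It stood at 14.4, 2.21 and 11.5 FPKM in WT replicates 1 to 3 and at 1242, 1854 and 1210.2 FPKM in OE replicates 1 to 3. Every OE library lay far above every WT library, and no other gene had so wide a gap. The means were 9.37 ± 6.36 and 1435 ± 363 FPKM (SD, n = 3 each), a ratio of 153, and the difference was 7.37 ± 0.49 on the log2 scale (standard error, limma adjusted p = 9.30e-05). In WT the libraries rested on 293, 44 and 216 fragments and in OE on 25709, 35134 and 22909. The drought libraries held 498 to 856 FPKM in WT and 1109 to 1518 FPKM in OE leaves. In drought the genotypes differed by 0.91 ± 0.49 (adjusted p = 0.175), short of the threshold.

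Of the 5 genes described as ATHB-7 or ATHB-12, 4 were tested, and all 4 were higher in OE leaves although 1 passed. Potri.012G023700 had 4.16, 0 and 0.635 FPKM in WT and 7.38, 20.1 and 0.269 FPKM in OE leaves, a difference of 1.58 ± 0.82 (adjusted p = 0.591). Potri.002G176300 differed by 0.68 ± 0.404 and Potri.001G083700 by 0.94 ± 0.36, with adjusted p-values of 0.647 and 0.442. Reads shared between near-identical copies could move values among them, and how such reads were counted is not stated in the labels. None of these approached the separation seen at Potri.014G103000.

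The UDP-arabinose 4-epimerase 1 gene Potri.001G459700 (chromosome 1, 49361230 to 49366179, minus strand) had the smallest adjusted p among the genes that were lower. The enzyme turns UDP-xylose into UDP-arabinose, a sugar donor for cell wall arabinans and arabinogalactan proteins. It held 18.2, 21.8 and 20.5 FPKM in WT and 4.54, 4.78 and 5.36 FPKM in OE leaves, with means of 20.2 ± 1.82 and 4.89 ± 0.426 FPKM (SD, n = 3 each) and a difference of -1.84 ± 0.14 (adjusted p = 2.71e-04). In drought it held 13.7 to 16.8 FPKM in WT and 14.1 to 17.1 FPKM in OE leaves, and the genotypes overlapped. The 3 other genes described as UDP-arabinose 4-epimerase lay between -0.27 and 0.46 and none of them passed.

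A neighbour of this gene, the probable carboxylesterase 18 Potri.001G459400 (chromosome 1, 49355583 to 49356811, plus strand), was also called. It held 4.39, 4.03 and 4.96 FPKM in WT and 1.595, 1.16 and 1.99 FPKM in OE leaves (-1.09 ± 0.17, adjusted p = 0.0276). Its call ended without each of WT replicates 1 to 3 and OE replicates 1 and 2 (adjusted p = 0.0925 to 0.148) and held without OE replicate 3. The genes around the pair were then listed, a choice made after their values were seen. Between the carboxylesterase and a Patellin-4 gene, over 159.6 kb (chromosome 1, 49355583 to 49515163), 11 of 19 listed genes were tested and 10 of the 11 were lower in OE leaves. All 10 had OE libraries that lay below every WT library and an unadjusted p under 0.05. Of all tested genes 5.29% lay below in this way and 3.07% were lower at that p. The bounds of the run were drawn with these values known, so the count is a description and no support. The median of the 11 was -0.76, and it ran from -0.89 to -0.74 with each watered library left out.

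Histone deacetylase 9 (Potri.001G460000), an enzyme that removes acetyl groups from histones, stood at 9.02, 10.6 and 9.49 FPKM in WT and 4.02, 4.68 and 5.15 FPKM in OE leaves (-0.93 ± 0.16, adjusted p = 0.0548). The mRNA turnover protein 4 homologue Potri.001G460100, known from yeast for ribosome assembly, stood at 17.4, 15.7 and 18.5 and 9.35, 10.5 and 9.703 FPKM (-0.74 ± 0.16, adjusted p = 0.127). An undescribed gene, Potri.001G460200, stood at 124, 131 and 133 and 73.2, 65.2 and 90.5 FPKM (-0.76 ± 0.18, adjusted p = 0.168). Each of these was lower in every OE library than in any WT library without passing the threshold over all genes. The exception in the run was LIGHT-DEPENDENT SHORT HYPOCOTYLS 3 (Potri.001G460400), at 50.97, 39.3 and 55.6 FPKM in WT and 69.5, 89.5 and 68.1 FPKM in OE leaves (0.63 ± 0.39, adjusted p = 0.665). This gene, too, separated the genotypes without overlap, in the opposite direction (gap 0.29). The next tested genes on either side, Potri.001G459300 and Potri.001G461700, had overlapping libraries and differences of 0.03 and 0.92.

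In order along the chromosomes, medians over 9 consecutive tested genes ranged from -0.76 to 0.70 in 22343 windows, and 4 overlapping windows in or across the start of this run tied for the lowest. The windows, too, were laid out after the called pair had been seen, and no test was made of them. The drought libraries, none of which entered the watered difference, give a second reading. There 8 of the 11 genes were lower in OE leaves past the threshold and 0 higher, where 21.7% of all tested genes were lower and 7.2% higher. The 8 include LIGHT-DEPENDENT SHORT HYPOCOTYLS 3, which was the gene with a higher mean in watered OE leaves, so 7 of the 10 genes lower in watered leaves passed in drought. Its drought minus watered difference was -2.12 (adjusted p = 0.0308). Histone deacetylase 9 held 13.1 to 18.4 FPKM in WT drought and 4.84 to 6.09 FPKM in OE drought libraries (-1.33 ± 0.16, adjusted p = 5.40e-04), and the mRNA turnover protein 4 homologue held 22.03 to 31.5 and 7.13 to 9.49 FPKM (-1.52 ± 0.16, adjusted p = 3.00e-04). With median-of-ratios scaling, under which 10.6% of all tested genes were lower and 13.1% higher, 7 of the 11 and 6 of the 10 passed, the call lost being that of Potri.001G460200 (adjusted p = 0.262), and with each drought library left out 6 to 8 of the 11 and 5 to 7 of the 10 passed. The calls that ended there were those of the pentatricopeptide repeat gene Potri.001G459900 (up to 0.0788), Potri.001G460200 (up to 0.0688) and Potri.001G460400 (0.0511 without WT drought replicate 5). The epimerase and Patellin-4 did not differ past the threshold in drought. In drought the 4 windows had medians from -0.54, for the one that begins furthest before the run, to -0.999, for the one wholly inside it, against -0.28 over all windows, and 12.6% and 0.349% of windows were lower.

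**Figure D4:**
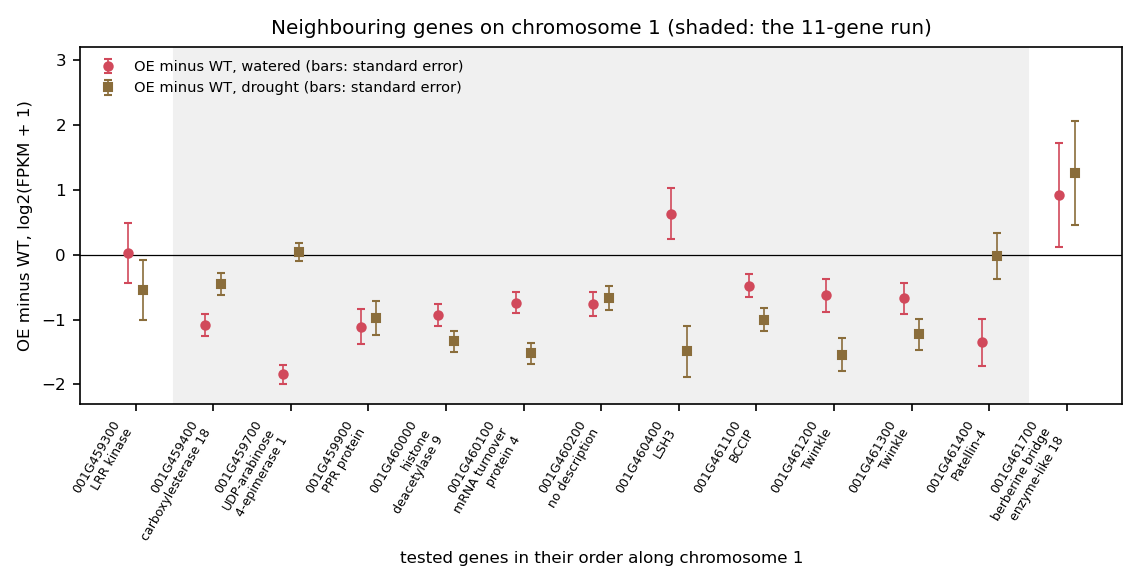
Difference between the genotypes (OE minus WT, log2(FPKM + 1), with standard errors) for tested genes in their order along chromosome 1, in watered leaves (circles) and in drought (squares). The shaded run holds 11 genes, of which 10 were lower in watered OE leaves, and the genes at both ends lie outside it.

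Among secreted metalloproteinases, zinc enzymes of the cell surface and wall, 4 of 9 tested genes were called, 2 in each direction. Over all tested genes 0.182% were called. Gene families are described in this report because they held called genes, so their counts of calls are no support for a family. The 2-MMP genes Potri.019G073800 (chromosome 19, 10774545 to 10775567, minus strand) and Potri.019G073400 were lower. The former held 29.998, 51.1 and 36.1 FPKM in WT and 8.49, 4.39 and 5.79 FPKM in OE leaves (-2.48 ± 0.26, adjusted p = 0.002897). The latter held 5.37, 6.75 and 4.11 and 0.949, 0.518 and 0.692 FPKM (-1.89 ± 0.24, adjusted p = 0.0101). Both fell in every OE library to less than the lowest WT library, with gaps of 1.71 and 1.39.

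The metalloendoproteinase 1 genes Potri.008G027900 (chromosome 8, 1501484 to 1502756, plus strand) and Potri.008G027600 went the other way. They held 1.49, 2.67 and 6.65 and 7.46, 6.87 and 14.8 FPKM in WT leaves. In OE leaves they held 31.8, 18.4 and 24.2 and 83.2, 49.96 and 40.9 FPKM, differences of 2.61 ± 0.35 and 2.47 ± 0.41 (adjusted p = 0.01403 and 0.03898). Each pair lies on 1 chromosome, with starts 59837 bp apart for the 2-MMP and 21547 bp apart for the metalloendoproteinase 1 genes, and each may share reads. Both metalloendoproteinase 1 calls ended without WT replicate 1 or 2 or OE replicate 1 (adjusted p = 0.0524 to 0.260), and that of Potri.008G027600 also without OE replicate 2 (0.122). The call of Potri.019G073400 ended without WT replicate 1 (0.0524) or 2 (0.0797).

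RADIALIS genes encode small MYB-like proteins, known in Antirrhinum for the asymmetry of the flower. Of 10 tested, 3 were lower in OE leaves and none was higher past the threshold (0.0608% and 0.122% of all tested genes). This family, too, was picked by its called genes. Potri.004G155400 (chromosome 4, 17687992 to 17689686, plus strand) held 6.81, 8.74 and 3.71 FPKM in WT leaves and 0, 0 and 0.574 FPKM in OE leaves, so that 2 OE libraries were listed at 0 (-2.61 ± 0.26, adjusted p = 0.00151). Potri.009G116600 held 17.7, 19.999 and 13.5 and 3.18, 1.27 and 5.11 FPKM (-2.204 ± 0.29, adjusted p = 0.01304). RADIALIS-like 6 (Potri.004G155866), whose start lies 66404 bp from that of the first, held 6.27, 5.595 and 4.82 and 1.82, 2.55 and 1.55 FPKM (-1.15 ± 0.17, adjusted p = 0.0241). All 3 were at or near 0 in the drought libraries of both genotypes. The other 7 ran from -0.97 to 1.18. The calls of Potri.009G116600 and Potri.004G155866 ended without WT replicate 1 or 2 or OE replicate 1, at adjusted p-values of 0.0620 to 0.171.

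The other 7 genes that were lower are of mixed kinds. A 21 kDa protein gene (Potri.015G128400), the most abundant of them, held 177, 228 and 122 FPKM in WT and 34.6, 24.4 and 76.9 FPKM in OE leaves (-2.05 ± 0.35, adjusted p = 0.0442). Serine carboxypeptidase 24 (Potri.018G105700), whose Arabidopsis namesake acts in brassinosteroid signalling, held 7.48, 11.4 and 8.05 and 2.53, 1.09 and 3.26 FPKM (-1.64 ± 0.24). NRT1/PTR FAMILY 2.13 (Potri.010G034700), in Arabidopsis a nitrate transporter that moves nitrate out of older leaves through the phloem, held 11.05, 12.5 and 10.2 and 3.67, 2.598 and 5.66 FPKM (-1.34 ± 0.23). ASNA1 (Potri.002G152500), an ATPase known to guide membrane proteins to the endoplasmic reticulum, was lower at 8.04, 7.47 and 6.54 FPKM in OE than at 17.4, 16.2 and 14.8 FPKM in WT leaves (-1.04 ± 0.15), while its only other copy differed by 0.32 and did not pass. RHA2A (Potri.007G086300), a ubiquitin ligase that promotes ABA responses in Arabidopsis, and the undescribed Potri.016G130066 and Potri.010G221900 were weak, with at most 2.73 FPKM in any watered library, and differed by -1.17 ± 0.199, -1.100 ± 0.17 and -1.01 ± 0.17. All 7 calls ended without WT replicate 1, WT replicate 2 or OE replicate 1 (adjusted p = 0.0634 to 0.271), and 6 of them also without WT replicate 3 (0.0526 to 0.149) and 4 without OE replicate 2 (0.0612 to 0.140).

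SUC2 (Potri.013G115200, chromosome 13, 12844919 to 12848795, minus strand), which loads sucrose into the phloem, held 0.0912, 0.328 and 0.249 FPKM in WT and 2.52, 3.73 and 3.099 FPKM in OE leaves (1.75 ± 0.16, adjusted p = 0.00104). APL (Potri.011G023600, chromosome 11, 1966169 to 1968166, plus strand), a MYB factor needed for phloem identity in Arabidopsis, held 0.0714, 0 and 0 and 1.97, 3.15 and 1.54 FPKM (1.62 ± 0.19, adjusted p = 0.00555). Both calls held with each watered library left out but not with only the 6 watered libraries fitted (0.0695 and 0.0907). Both genes were at or near 0 in WT watered and in all drought libraries. The remaining 3 genes described as APL or SUC2 were expressed at higher levels and lay between 0.37 and 0.76, and none passed. The phloem list, made from words in the descriptions, holds SUC2 but not APL. Of its 36 tested genes 1 was called, against 0.182% of all tested genes. In this list 19 were higher and 17 lower (17 and 19 with median-of-ratios scaling), and the median was 0.06 against 0.05 over all genes. In whole leaves a change in the number of cells of a type and a change in their RNA cannot be told apart.

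The dnaJ 11 genes encode small chloroplast co-chaperones of the J-domain type. Of the 9 tested, 2 were called (0.182% of all tested genes), in a family again picked by its called genes. All 9 had higher means in OE leaves, 3 of them by so little that median-of-ratios scaling left 6 higher. Potri.005G240700 (chromosome 5, 24679956 to 24680970, plus strand) held 40.97, 34.4 and 55.7 FPKM in WT and 182, 135 and 132 FPKM in OE leaves (1.77 ± 0.21, adjusted p = 0.00617). Potri.009G131800 held 2.48, 4.06 and 4.801 and 27.5, 13.98 and 28.6 FPKM (2.32 ± 0.39, adjusted p = 0.0442), and its call ended without WT replicate 1, 2 or 3 (0.172, 0.223 and 0.0816) or OE replicate 1 (0.202). Another copy, Potri.004G172300, held 6.13, 10.4 and 28.8 and 113, 65.6 and 69.1 FPKM without overlap, yet spread widely in WT leaves and did not pass (2.59 ± 0.51, adjusted p = 0.0949).

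A further 5 genes called higher are described together, a grouping made after their values were seen and no fixed list. Abscisic acid 8'-hydroxylase 1 (Potri.004G235400), which breaks down ABA, held 4.11, 2.504 and 4.24 FPKM in WT and 10.4, 14.01 and 10.1 FPKM in OE leaves (1.45 ± 0.22, adjusted p = 0.0272). Late embryogenesis abundant protein D-29 (Potri.005G122400), of a family that accumulates in drying tissue, held 3.32, 2.11 and 2.84 and 10.8, 9.99 and 6.07 FPKM (1.38 ± 0.22, adjusted p = 0.0286). Protein phosphatase 2C 8 (Potri.012G002700) held 6.698, 5.43 and 8.14 and 21.3, 20.1 and 17.4 FPKM (1.42 ± 0.21, adjusted p = 0.0241). These levels were small beside those of the drought libraries, where the hydroxylase held 169 to 242 FPKM in WT and 170.2 to 249 FPKM in OE leaves and LEA D-29 held 166 to 248 and 99.3 to 104 FPKM. NAC transcription factor 29 (Potri.008G089000), a driver of leaf senescence in Arabidopsis, held 12.2, 8.58 and 12.1 and 25.4, 34.6 and 21.6 FPKM (1.23 ± 0.21, adjusted p = 0.0488). Cysteine proteinase inhibitor 2 (Potri.002G235800), which blocks papain-type proteases, held 0.252, 0.646 and 0.549 and 3.84, 2.03 and 4.34 FPKM (1.54 ± 0.24, adjusted p = 0.0272). None of the 5 calls held without WT replicate 1, WT replicate 2 or OE replicate 1 (adjusted p = 0.0794 to 0.286), 4 ended without WT replicate 3 (0.0526 to 0.0961), 4 ended without OE replicate 2 (0.105 to 0.162), and all 5 held without OE replicate 3.

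The lists of wider pathways are given beside all tested genes. Over all 23026 tested genes 0.182% were called, 13358 were higher in OE leaves, and 10132 were higher with median-of-ratios scaling. At that share, 1 call or none in a list of 16 to 44 genes is no result about the list. Of 16 tested genes of ABA synthesis and breakdown, the hydroxylase alone was called and 7 were higher. Of 44 ABA signalling genes none was called, 36 were higher (33 with median-of-ratios scaling), and the median was 0.29, with 0.19 without OE replicate 2 and 0.202 with median-of-ratios scaling. Its member with the smallest p, the ABI5-like factor Potri.009G101166, held 39.8, 29.8 and 32.2 FPKM in WT and 85.8, 91.96 and 60.6 FPKM in OE leaves (1.19 ± 0.26, adjusted p = 0.131). Of 28 dehydration response genes, LEA D-29 was called, 23 were higher (19 with median-of-ratios scaling) and the median was 0.16 (0.06 with that scaling), against 0.05 over all genes. The median of the dehydration list ran from 0.13 without WT replicate 2 to 0.44 without WT replicate 1. The widest gap among genes that were not called belonged to galactinol synthase 1 (Potri.010G150400), which opens the raffinose pathway and stood at 1.41, 1.86 and 1.905 FPKM in WT and 8.48, 12.8 and 8.62 FPKM in OE leaves (1.99 ± 0.37, adjusted p = 0.0704).

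Transcription factors made up 6 further calls, all higher in OE leaves. EFM (Potri.005G134600, chromosome 5, 10963165 to 10965416, plus strand), a MYB factor that delays flowering in Arabidopsis, held 6.53, 3.48 and 4.97 FPKM in WT and 15.6, 16.9 and 19.5 FPKM in OE leaves (1.64 ± 0.19, adjusted p = 0.00618). The bHLH35 gene Potri.006G074800 held 0.446, 0.0916 and 0.584 and 4.14, 3.65 and 6.74 FPKM (2.07 ± 0.25, adjusted p = 0.00705). A second bHLH35 gene, Potri.018G141800, held 12.9, 11.97 and 15.6 and 32.2, 34.2 and 27.02 FPKM (1.15 ± 0.17, adjusted p = 0.0241), and the other 4 tested lay between -0.40 and 0.32. The homeobox gene ATHB-52 (Potri.017G016900), the basic leucine zipper gene 43 (Potri.010G135200) and IAA26 (Potri.018G057000), a repressor of auxin responses, differed by 1.304 ± 0.21, 1.24 ± 0.18 and 1.29 ± 0.22. ATHB-52 held 3.86, 3.96 and 5.36 FPKM in WT and 15.4, 10.8 and 10.97 FPKM in OE leaves, and IAA26 held 3.25, 2.798 and 2.93 and 7.397, 11.02 and 8.17 FPKM. Of the 6, EFM alone held with each library left out, and 3 to 5 of the others ended without WT replicate 1, 2 or 3 or OE replicate 1 or 2, at adjusted p-values of 0.0526 to 0.271.

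Metabolic genes made up 4 calls. Alanine-glyoxylate aminotransferase 2 (Potri.016G132100) held 0.52002, 0.839 and 0.324 FPKM in WT and 2.56, 4.3998 and 3.92 FPKM in OE leaves (1.56 ± 0.21, adjusted p = 0.01403). GLUTAMINE DUMPER 2 (Potri.017G107300), of a family that promotes amino acid export in Arabidopsis, held 0.781, 0.735 and 0.994 and 3.27, 2.804 and 4.28 FPKM (1.27 ± 0.17, adjusted p = 0.01304). Alanine aminotransferase 2 (Potri.001G162800) and STRICTOSIDINE SYNTHASE-LIKE 2 (Potri.006G040900) differed by 1.11 ± 0.18 and 1.13 ± 0.18. Between 2 and 3 of the 4 calls ended when WT replicate 1, 2 or 3 or OE replicate 1 or 2 was left out, at adjusted p-values of 0.0526 to 0.249.

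The last 6 called genes have no description. Potri.005G087000 (chromosome 5, 6508592 to 6509306, plus strand) held 3.81, 2.34 and 2.16 FPKM in WT and 15.6, 15.7 and 12.3 FPKM in OE leaves (2.06 ± 0.19, adjusted p = 0.00115), and it held with each library left out. Potri.001G190700 held 1.48, 1.06 and 3.55 and 14.5, 10.05 and 8.62 FPKM (2.05 ± 0.32, adjusted p = 0.0279). Potri.008G146500 held 20.4, 20.3 and 19.9 and 48.5, 61.7 and 55.4 FPKM (1.399 ± 0.21). The remaining Potri.003G092700, Potri.015G091900 and Potri.010G165600 differed by 1.55 ± 0.22, 1.55 ± 0.24 and 1.11 ± 0.18. Apart from Potri.005G087000, the calls ended without at least 1 of WT replicates 1 to 3 and OE replicates 1 and 2 (adjusted p = 0.0580 to 0.236). The rule for naming genes took the 15 largest rises. It also took the ABA hydroxylase, LEA D-29 and IAA26 as called members of lists. The other genes called higher are named here because they passed.

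**Figure D5:**
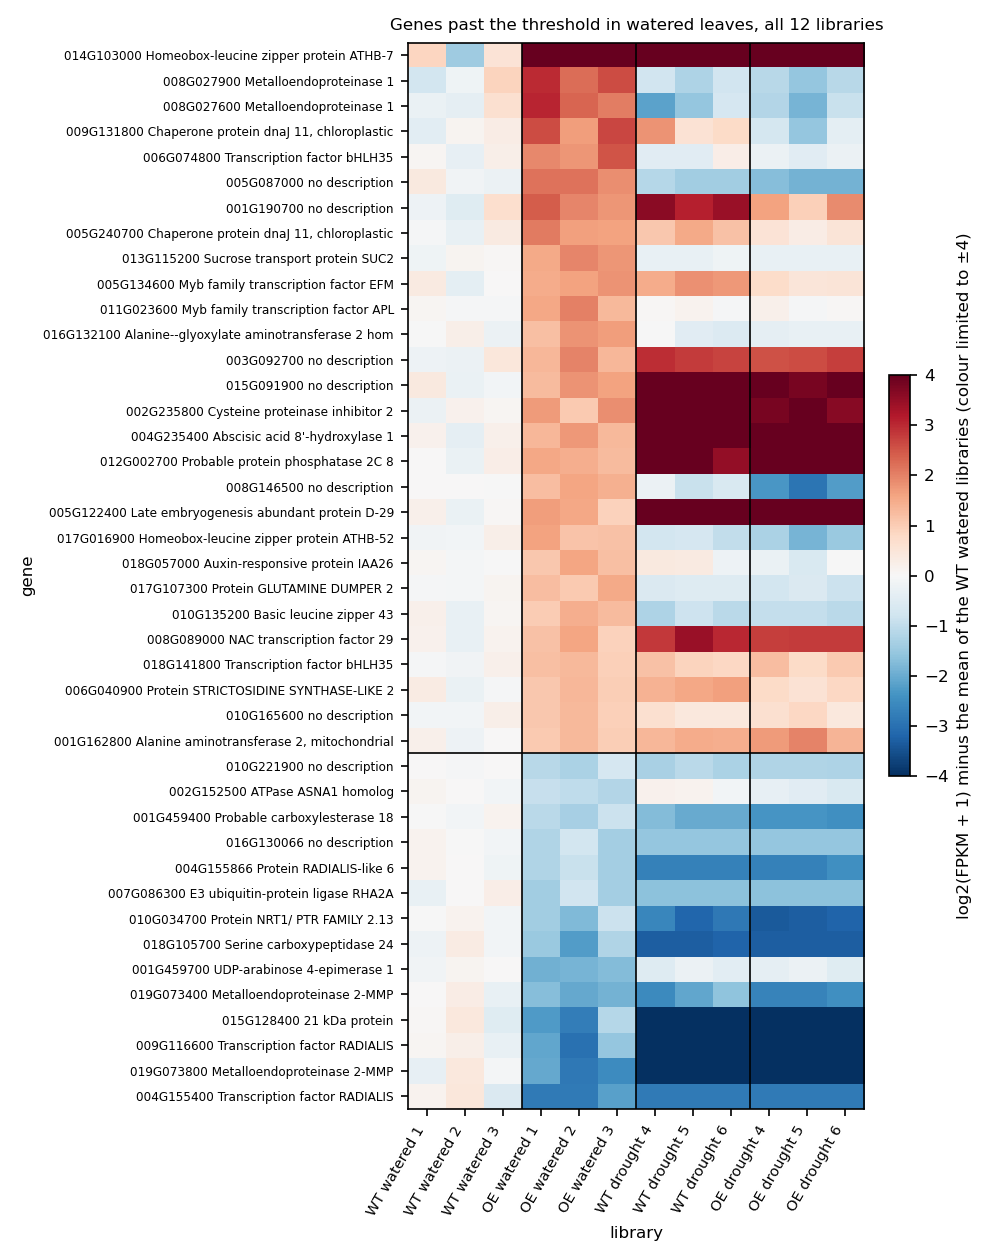
The 42 called genes (rows, ordered by the difference in watered leaves) in all 12 libraries (columns). Colour gives log2(FPKM + 1) minus the mean of the WT watered libraries. The 28 genes above the line were higher in the 3 OE watered libraries, and the drought columns show both redder and bluer rows among them.

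The genes named by the study's question did not separate the genotypes in watered leaves. The 6 genes described as AP2, of the type that miR172 is known to repress, all overlapped between genotypes and none reached an unadjusted p under 0.05. Of all tested genes 18.3% did not overlap and 9.61% reached that p. Most genes therefore behave as these 6 did, and their count does not set them apart. Their list rests on that description alone, and whether Pu-miR172d targets them was not tested. Potri.007G046200 held 20.8, 16.1 and 18.6 FPKM in WT and 19.4, 31.999 and 20.6 FPKM in OE leaves, and its difference had a 95% interval of -0.14 to 0.801. Potri.005G140700 held 15.3, 15.1 and 14.5 and 11.97, 16.2 and 11.4 FPKM, with an interval of -0.56 to 0.19. They gave no check of the genotype labels. The GTL1 gene Potri.001G454500 held 28.5, 25.9 and 22.2 and 22.02, 31.4 and 28.6 FPKM (interval -0.51 to 0.68), Potri.011G147400 held 13.2, 11.5 and 11.3 and 11.3, 16.2 and 16.1 FPKM, and the tested SDD1 gene Potri.002G256300 held 2.86, 1.23 and 1.56 and 1.28, 2.43 and 2.44 FPKM. Of 30 tested stomatal lineage genes none was called and 16 were higher (11 with median-of-ratios scaling). Over all 23026 tested genes 0.182% were called, 13358 were higher, and 10132 were higher with that scaling. Of 8 guard cell genes none was called and 2 were higher, among them the kinase SRK2E (Potri.009G106900) at 18.2, 19.5 and 22.2 and 22.98, 33.9 and 28.2 FPKM (0.47 ± 0.19, adjusted p = 0.455).

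The photosynthetic genes that mark leaf tissue were abundant in the 6 watered libraries, and neither they nor the lists of xylem, cell wall and cuticle gave a call. Over all 23026 tested genes 0.182% were called, 9668 were lower in OE leaves, and 12894 were lower with median-of-ratios scaling. Of 45 tested xylem and secondary wall genes, 43 were lower in OE leaves, with a median of -0.66. Their summed level was 483, 912 and 1174 FPKM in WT and 411, 210.4 and 817 FPKM in OE replicates 1 to 3, so that the sums overlapped. Without OE replicate 3, 4 of the 45 genes were lower past the threshold and the median was -1.12, and without OE replicate 2 it was -0.35. In the fit without OE replicate 3, 231 of all 23026 tested genes were called lower. Of 70 photosystem and antenna genes 59 were lower (median -0.22) and of 19 Calvin cycle genes 15 were lower (median -0.33), with none called. The photosystem median ran from -0.35 without OE replicate 1 to -0.11 without OE replicate 2, where 48 were lower. Photosystem and antenna genes summed to 72598, 75875 and 66814 FPKM in WT and 71328, 49436 and 60071 FPKM in OE leaves. Lists of wall expansion and of wax and cutin had medians of -0.16 and -0.18. Without OE replicate 3 these were -0.53 and -0.43. There 10 of 45 and 10 of 93 genes were called lower, beside the 231 of 23026 over all tested genes. The medians were -0.07 and -0.06 without OE replicate 2. That of wax and cutin was -0.04 without OE replicate 1, and that of wall expansion was -0.29 without WT replicate 3. Of 282 cytosolic ribosomal protein genes 217 were higher (median 0.11), a direction that median-of-ratios scaling removed (142 higher, median 0.003). The part of cell type proportions in these values was not tested.

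Members of other lists stayed below the threshold, apart from IAA26. Their counts stand beside 13358 of 23026 tested genes that were higher (10132 with median-of-ratios scaling). Among ethylene response and DREB factors 49 of 71 were higher (median 0.19, and 0.103 without OE replicate 2, 0.296 without OE replicate 1 and 0.101 with median-of-ratios scaling), with ethylene-responsive factor 9 (Potri.007G138100) at 16.8, 11.7 and 18.6 FPKM in WT and 30.2, 41.7 and 35.6 FPKM in OE leaves (1.15 ± 0.25, adjusted p = 0.129). A mitochondrial small heat shock protein (Potri.001G192600) held 8.47, 4.01 and 7.88 and 18.7, 34.3 and 20.7 FPKM (1.72 ± 0.32, adjusted p = 0.0628) in a list of heat shock proteins and chaperones with 53 of 95 higher (42 with median-of-ratios scaling). The called dnaJ 11 genes are not in that list. AGL62 (Potri.009G084100), a MADS-box factor of the seed in Arabidopsis, held 0.145, 0 and 0 and 1.71, 5.77 and 1.41 FPKM (1.76 ± 0.31, adjusted p = 0.0533). The clock gene GIGANTEA (Potri.005G196700) held 12.5, 10.3 and 9.31 and 18.3, 23.3 and 12.7 FPKM, with 36 of 57 clock and light genes higher. Aquaporin TIP2-1 (Potri.003G050900), a water channel of the vacuole, held 35.6, 45.6 and 33.8 and 15.04, 8.89 and 21.2 FPKM (-1.36 ± 0.27, adjusted p = 0.105), with 20 of 41 aquaporins higher (16 with median-of-ratios scaling). The jasmonate repressor TIFY 6B (Potri.015G035800) held 37.1, 67.001 and 45.9 and 23.4, 12.2 and 31.7 FPKM, with 21 of 41 jasmonate genes higher (11 with median-of-ratios scaling). Of 135 tested auxin genes 1, IAA26, was called, against 0.182% of all tested genes.

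The remaining lists had no called member, where 0.182% of all tested genes were called, and medians from -0.096 to 0.13. The higher members numbered 50 of 73 for WRKY factors, 20 of 33 for ethylene and 20 of 29 for meristem and flower genes, and with 1 watered library left out they ran from 38 to 61, from 19 to 22 and from 17 to 22. Among cell division genes 21 of 42 were higher, with 33 without OE replicate 2 and 12 without OE replicate 3. Among epidermis and trichome genes 4 of 11 were higher, with 8 without OE replicate 1. The phenylpropanoid and flavonoid pathway had 26 of 57 higher (21 to 29 with 1 library left out), and pathogenesis-related and wound genes had 62 of 139, with 47 without WT replicate 1 and 82 without WT replicate 3. A majority that median-of-ratios scaling turned was seen for calcium signalling (61 of 99 higher, then 43), disease resistance receptors (51 of 87, then 40), flowering and age (22 of 37, then 16) and glutathione transferases with cytochromes P450 (82 of 149, then 69). All tested genes together turned in the same way (13358 of 23026 higher, then 10132). WRKY39 (Potri.005G055300), of a family that acts in defence and stress responses, held 2.896, 3.02 and 4.29 FPKM in WT and 6.74, 8.38 and 7.71 FPKM in OE leaves (0.98 ± 0.21, adjusted p = 0.124). Dihydroflavonol 4-reductase (Potri.001G093300), an enzyme of anthocyanin and tannin synthesis, held 55.04, 45.2 and 54.9 and 25.5, 29.3 and 29.4 FPKM (-0.86 ± 0.22, adjusted p = 0.208). Both genes separated the libraries of the genotypes without passing the threshold.

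Of the 10 genes with the widest gaps among those not called, galactinol synthase 1 and the dnaJ 11 copy Potri.004G172300 are given above. RCI2A (Potri.013G001600), a small membrane protein induced by cold and salt in Arabidopsis, held 18.6, 13.3 and 24.5 FPKM in WT and 77.3, 74.02 and 69.7 FPKM in OE leaves (1.95 ± 0.49, adjusted p = 0.193). Nicotianamine synthase (Potri.005G014300), which makes a chelator that carries iron and other metals, held 8.12, 2.14 and 6.58 and 28.7, 28.3 and 21.3 FPKM (2.16 ± 0.504, adjusted p = 0.147). The WAT1-related gene Potri.006G082700 held 6.67, 3.03 and 9.14 and 30.03, 32.9 and 40.04 FPKM (2.37 ± 0.51, adjusted p = 0.121). DETOXIFICATION 56 (Potri.003G116700), a transporter known from Arabidopsis guard cells, held 3.45, 3.31 and 3.95 and 11.2, 12.97 and 10.5 FPKM (1.46 ± 0.46, adjusted p = 0.316). All of them were higher in every OE library than in any WT library, as were the undescribed Potri.004G044300, Potri.003G136700, Potri.004G092800 and Potri.006G149900, with differences of 2.703, 2.31, 1.41 and 2.02.

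The drought libraries share none of the watered libraries and show what became of the called genes in the other condition. There 6652 of 23026 genes (28.9%) differed between genotypes past the threshold, 1658 higher (7.2%) and 4994 lower (21.7%), and the median of all genes was -0.27. With median-of-ratios scaling the balance turned, with 3010 higher (13.1%), 2433 lower (10.6%) and a median of -0.06. Of the 28 genes higher in watered OE leaves, 10 were also higher in drought, and of these 1 passed, protein phosphatase 2C 8 (0.98 ± 0.21, adjusted p = 0.00773). A further 9 passed in the opposite direction. The undescribed Potri.008G146500 fell the furthest, with 10.5 to 17.2 FPKM in WT and 1.799 to 3.501 FPKM in OE drought leaves (-1.92 ± 0.21, adjusted p = 3.09e-04). Potri.009G131800, a dnaJ 11 gene, stood at 5.92 to 15.1 and 0.616 to 2.599 FPKM (-1.91 ± 0.39, adjusted p = 0.00625), and EFM at 15.4 to 19.8 and 7.23 to 8.74 FPKM (-1.097 ± 0.19, adjusted p = 0.00322). The other 6 were Potri.001G190700, cysteine proteinase inhibitor 2, LEA D-29, Potri.005G240700, STRICTOSIDINE SYNTHASE-LIKE 2 and ATHB-52. With median-of-ratios scaling the calls of Potri.005G240700 (adjusted p = 0.113), ATHB-52 (0.0645) and STRICTOSIDINE SYNTHASE-LIKE 2 (0.0514) ended. The calls of Potri.005G240700 and ATHB-52 also ended when a drought library was left out (adjusted p of up to 0.0562 and 0.0860).

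Of the 14 genes lower in watered OE leaves, 7 were also lower in drought, 1 of them past the threshold, and 0 passed in the other direction. That gene was ASNA1, at 14.9 to 18.4 FPKM in WT and 10.3 to 12.7 FPKM in OE drought leaves (-0.53 ± 0.15, adjusted p = 0.0206). Its call ended with median-of-ratios scaling (0.298) and without WT drought replicate 4 (0.0751) or 5 (0.0579) or OE drought replicate 6 (0.0639). Most of the others were listed near 0 in drought in both genotypes, as were RADIALIS and 2-MMP, where no difference was detectable. The difference between the 2 genotype differences passed the threshold for 38 of the 42 genes, against 14.5% of all tested genes. The watered libraries that chose these genes enter that contrast too, so their count is no independent support.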

How the data were processed

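Per the labels, Trizol RNA went into NEBNext Ultra libraries, and a HiSeq instrument gave near 4 Gb of paired 150 bp reads for each. The kit leaves strand unmarked, so reads of a gene and of an antisense partner could not be separated. The authors deposited gene levels in FPKM, with gene positions and descriptions. Bowtie2 2.2.3 and HISAT2 2.1.0 are listed in the submitters' processing notes, without their roles. Genome build and counting tool: not given in the sources used here. Coordinates are as the authors list them.

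For 35744 of 35747 genes (99.992%) the values were whole fragments within 0.02, which gave library totals of 9682111 to 12131416. Totals speak for counting error only. Values of log2(FPKM + 1) entered a limma 3.58.1 fit (R 4.3.3) of 4 group means over 12 libraries, with 8 residual degrees of freedom and a prior variance that depends on level. Benjamini-Hochberg adjustment ran over 23026 genes. A difference on this scale understates that of weak genes, and ± marks the standard error. The fit was tested on simulated data. Library pairs within a genotype had chi-square values of 12.4 to 38.1 per gene, above sampling noise. Each library counted as a sample, although such spread can be technical and does not show that libraries came from separate plants.

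Genes were named if they were among the 15 largest rises or falls past the threshold, were AP2, GTL1 or SDD1 genes, led a list (up to 4 called members, or else the smallest p), were at 0 in a whole genotype, or had 1 of the 10 widest gaps. The 31 lists rest on words in the descriptions, which 18423 tested genes have. The members and lists were chosen with earlier results of these data known. Alternatives changed the libraries fitted, filter, pseudocount, scaling, variance model and test.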

Additional observations from a re-analysis of the deposited data

Results flagged for a closer look

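The genotype difference in drought minus that in watered leaves passed a limma adjusted p of 0.05, over all tested genes, for 38 of the 42 called genes, which is what marked them. All values here are on the log2(FPKM + 1) scale, and a negative value means that the OE minus WT difference was smaller in drought. The watered libraries that chose the genes also enter these values, and the exceptions were protein phosphatase 2C 8, ASNA1, carboxylesterase 18 and NRT1/PTR FAMILY 2.13.

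Among transcription factors that were higher in watered OE leaves, the value was -6.46 for ATHB-7 (Potri.014G103000), -2.73 for EFM (Potri.005G134600), -2.04 for ATHB-52 (Potri.017G016900), -1.600 for APL (Potri.011G023600), -1.53 for NAC 29 (Potri.008G089000) and -1.76 for IAA26 (Potri.018G057000). For the bHLH35 genes it was -2.16 (Potri.006G074800) and -1.103 (Potri.018G141800), and for the basic leucine zipper gene Potri.010G135200 it was -1.196. The dnaJ 11 genes had -4.23 (Potri.009G131800) and -2.57 (Potri.005G240700), and the metalloendoproteinase 1 genes had -2.94 (Potri.008G027900) and -2.32 (Potri.008G027600).

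SUC2 (Potri.013G115200) had -1.78, cysteine proteinase inhibitor 2 (Potri.002G235800) had -2.75, the ABA hydroxylase (Potri.004G235400) had -1.37 and LEA D-29 (Potri.005G122400) had -2.34. In metabolism the values were -1.54 (Potri.016G132100), -0.85 (Potri.001G162800), -1.92 (Potri.006G040900) and -1.46 (Potri.017G107300). Undescribed genes had -2.58 (Potri.005G087000), -3.94 (Potri.001G190700), -3.32 (Potri.008G146500), -1.72 (Potri.003G092700), -2.16 (Potri.015G091900) and -0.99 (Potri.010G165600).

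Among genes lower in watered OE leaves, the value was 2.61, 2.204 and 1.23 for the RADIALIS genes Potri.004G155400, Potri.009G116600 and Potri.004G155866. It was 2.197 and 1.37 for the 2-MMP genes Potri.019G073800 and Potri.019G073400, 1.88 for the epimerase Potri.001G459700, 2.23 for the 21 kDa protein gene Potri.015G128400 and 1.605 for serine carboxypeptidase 24 (Potri.018G105700). RHA2A (Potri.007G086300) had 1.17, and the undescribed Potri.016G130066 and Potri.010G221900 had 1.100 and 0.99. Most of these genes were listed at or near 0 FPKM in drought in both genotypes, where no difference could be seen.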

How the results depend on the processing

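The count of 42 called genes moved with the libraries fitted, the pseudocount, the filter and the test. It was 6 with only the 6 watered libraries fitted (4 shared with the 42), 23 with a pseudocount of 0.1 (18 shared), 19 with at least 5 FPKM in 3 libraries (all shared), 730 with array weights per library (weights from 0.222 to 7.95, all 42 shared), 21 with voom on recovered fragments (20 shared) and 22 with voom and median-of-ratios scaling, the last chosen after seeing the data. With each watered library left out it ran from 10 to 308. It was 45 with median-of-ratios scaling (39 shared), 47 with an equal sum outside the 100 most abundant genes, 41 with one prior variance or with no filter beyond detection, 35 with the filter over 12 libraries, and 42 with a log2 difference of at least 1. No called gene changed direction with any of these. The count in drought, 6652, was 2500 with only the 6 drought libraries fitted.

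The labels do not say whether equal replicate numbers pair the samples. Deviations of same-numbered WT and OE watered libraries correlated at 0.01, -0.52 and 0.00, and those of different-numbered libraries at -0.38 to 0.45. With 3 libraries a group these values cannot decide whether samples were paired. With the replicate number as a block, 5 genes were called over 12 libraries and 0 over the 6 watered libraries, where limma had 2 residual degrees of freedom and 2083 genes had an unadjusted p under 0.05.

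An exact two-sided permutation test of 3 against 3 libraries cannot go below 0.1. Of the called genes, 12 had a mean under 5 FPKM in both genotypes, where the counting error is large.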
